A study of Cavia porcellus with 34 samples.

Results

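Proteasome genes were followed in the paraventricular nucleus (PVN) of guinea pigs, all females of the paternal line. Members were all genes with a symbol made of PSMA to PSMG and a number. This rule took 36 of 12114 genes in the F1 table, 39 of 12207 in the F2 table and 39 of 12068 in the F3 table. PSMB5, PSMB8 and PSME1 were in the F2 and F3 tables only, so 36 members were in all 3. PSMC3IP, a partner of meiotic recombinases, also matched the rule, and was kept out of the role groups because it is not a subunit. Genes outside the tables, among them the catalytic subunit PSMB6 and the ubiquitin receptor PSMD4, were not analysed here.

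Pregnant Dunkin-Hartley F0 guinea pigs were given 3 courses of saline vehicle (Veh) or of betamethasone, a synthetic glucocorticoid (sGC, 1 mg/kg), late in gestation, on days 40 and 41, 50 and 51, and 60 and 61. The labels call these groups Control and Beta. F1 animals were exposed directly as fetuses. F2 and F3 animals descended from males of the treated line mated with untreated females, so only their ancestors had received the injection. The PVN was punched from the brain of juvenile females on postnatal day 40, with 5 Veh and 5 sGC animals in each of F1 and F2, and 6 of each in F3. A punch of 1.0 mm may hold tissue that borders the PVN, and in bulk tissue a lower share of a cell type and less RNA per cell cannot be told apart.

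The proteasome is the large protease that degrades proteins tagged with ubiquitin. Its core particle is a barrel of stacked rings. The outer rings are built of alpha subunits (PSMA), which form the gate, and the inner rings of beta subunits (PSMB), some of which hold the active sites. In immune cells and under interferon, PSMB8, PSMB9 and PSMB10 take the place of the usual catalytic subunits and form the immunoproteasome. The regulatory particle caps the core. Its base holds ATPases (PSMC) that unfold the substrate and scaffold subunits (PSMD1, PSMD2), and its lid (other PSMD genes) holds the deubiquitinase PSMD14. PSME genes encode other activators that can cap the core, PSMF1 an inhibitor, and PSMG genes and PSMD5 chaperones that help to assemble the particle. In neurons the proteasome sets the turnover of synaptic and signalling proteins.

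The values are normalized counts from which the authors had removed unwanted variation, rounded to whole numbers. The deposited values summed to 15.6 to 21.9 M (mega) per animal in F1, 15.6 to 19.4 M in F2 and 18.7 to 19.0 M in F3. Because these sums differed, each animal's values were divided by a size factor, the median ratio of its genes to their mean over all animals of the table. Size factors ranged from 0.849 to 1.20 in F1 Veh, from 0.908 to 1.07 in F1 sGC and from 0.994 to 1.01 in F3. The PVN markers AVP, OXT, CRH, TRH, SIM1 and OTP were present in every table, with no value of 0 in any animal.

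In F1, proteasome genes were lower in sGC than in Veh as a group. Of 36 members tested, 17 fell and 1 rose (limma, adjusted p under 0.05 over all genes), which is 18 called members against a background of 17.3% of all 11870 genes. Over all genes, 8.86% fell and 8.48% rose, so lower and higher calls were about equal in number over all genes. The log2 fold change was negative in 30 of 36 members, with a median of -0.15 relative to the median of all genes. Sizes were small, and the 17 falls ranged from -0.10 to -0.43 on the log2 scale. In 11 members all 5 sGC animals lay below all 5 Veh animals, as did 7.16% of all genes. Without the division by size factors, on the deposited scale, no member passed (smallest adjusted p = 0.205 by limma). Of all genes 0.657% passed there, 72 higher and 6 lower, against 1006 higher and 1052 lower with size factors. Unadjusted p was under 0.05 in 2 members on the deposited scale, and the share of all genes at that threshold is not given. The median relative to all genes was -0.15 on that scale too.

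**Figure D1:**
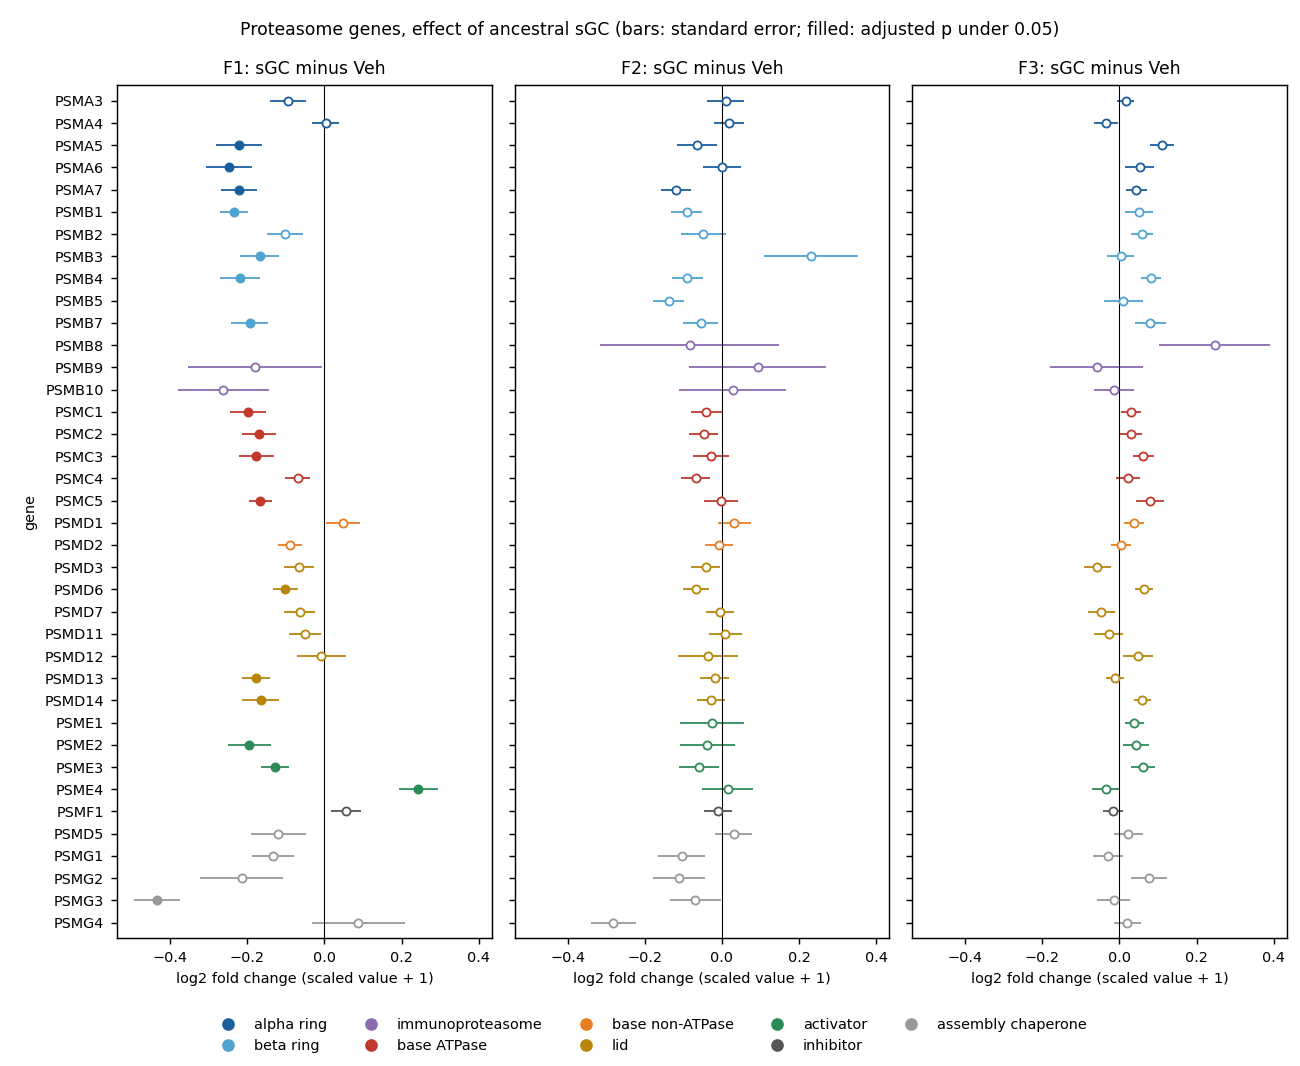
Log2 fold change of each proteasome gene, sGC minus Veh, in F1, F2 and F3 (horizontal axis, log2 of the scaled value plus 1), with genes in rows coloured by role and PSMC3IP left out, bars for 1 standard error and filled points for an adjusted p under 0.05. In F1 most points lie left of 0 and 18 are filled, of which PSME4 alone lies to the right, whereas no point is filled in F2 or F3.

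Within the core particle, 7 of 12 members fell in F1 and none rose, against 8.86% and 8.48% of all genes. Among the alpha ring genes PSMA5, PSMA6 and PSMA7 fell, whereas PSMA3 had a log2 fold change of -0.09 (adjusted p = 0.191, limma) and PSMA4 one of 0.00 (adjusted p = 0.968). PSMA7 was at 1826, 1888, 1866, 1833 and 1937 scaled normalized counts in Veh. It was at 1591, 1755, 1658, 1526 and 1501 in sGC. All sGC animals lay below all Veh animals, and the mean fell by 14.2% (log2 fold change -0.22 ± 0.05 SE; limma, adjusted p = 0.0103). PSMA6 fell by 15.7%, with 1 sGC animal, at 1319, above the lowest Veh animal, at 1306 (limma, adjusted p = 0.0195).

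Of the beta ring genes PSMB1, PSMB3, PSMB4 and PSMB7 fell, and PSMB2 was at -0.10 on the log2 scale without passing (adjusted p = 0.15). PSMB1 encodes a structural beta subunit. Its values were 2845, 3070, 2884, 2751 and 2906 scaled normalized counts in Veh, and 2490, 2547, 2420, 2412 and 2407 in sGC. The groups did not overlap, with means of 2891 ± 116 (SD, n = 5) in Veh and 2455 ± 61.3 (SD, n = 5) in sGC (log2 fold change -0.24 ± 0.04 SE; limma, adjusted p = 0.00289). PSMB4, a structural subunit too, fell from 2284 ± 172 (SD, n = 5) to 1958 ± 56.1 (SD, n = 5), with every sGC animal under the lowest Veh animal (limma, adjusted p = 0.0166). PSMB7 carries the trypsin-like active site and was the only standard catalytic subunit in the F1 table. It was at 2025, 2207, 2118, 2011 and 2241 in Veh and at 1818, 2008, 1901, 1809 and 1731 in sGC, so the highest sGC animal lay just under the lowest Veh animal (limma, adjusted p = 0.0217).

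The immunoproteasome genes were low and variable. PSMB9 had 73.0 ± 19.4 (SD, n = 5) scaled normalized counts in F1 Veh and 63.0 ± 7.89 (SD, n = 5) in F1 sGC. PSMB10 had 186 ± 6.32 (SD, n = 5) and 157 ± 29.4 (SD, n = 5). Neither passed the test, with log2 fold changes of -0.18 ± 0.17 SE (limma, adjusted p = 0.503) and -0.26 ± 0.12 SE (adjusted p = 0.148).

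Of the regulatory genes (PSMC, PSMD and PSME), 9 of 18 fell in F1 and 1 rose, against 8.86% and 8.48% of all genes. Of 5 base ATPases PSMC1, PSMC2, PSMC3 and PSMC5 fell, and PSMC4 had a log2 fold change of -0.07 without passing (limma, adjusted p = 0.162). PSMC5 was at 2602, 2589, 2568, 2609 and 2510 scaled normalized counts in Veh and at 2221, 2364, 2302, 2329 and 2260 in sGC, a gap wider than the range of either group (log2 fold change -0.17 ± 0.03 SE; limma, adjusted p = 0.00573). PSMC1 fell by 12.8%, again with no overlap between the groups (limma, adjusted p = 0.0187). The scaffold subunits of the base did not pass, with log2 fold changes of 0.05 for PSMD1 (limma, adjusted p = 0.486) and -0.09 for PSMD2 (adjusted p = 0.0701).

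In the lid, PSMD6, PSMD13 and PSMD14 of 7 genes fell (8.86% of all genes did), and all 7 had a negative log2 fold change. PSMD13, a structural lid subunit, fell from 1776 ± 62.6 (SD, n = 5) to 1568 ± 42.3 (SD, n = 5) scaled normalized counts, with no overlap (limma, adjusted p = 0.00972). PSMD14 removes ubiquitin chains from the substrate before it enters the core. It was at 1397, 1652, 1486, 1402 and 1524 in Veh and at 1310, 1366, 1334, 1330 and 1300 in sGC, again without overlap (log2 fold change -0.17 ± 0.05 SE; limma, adjusted p = 0.0386). PSMD3, PSMD7, PSMD11 and PSMD12 had log2 fold changes from -0.07 to -0.01, with adjusted p-values from 0.269 to 0.945.

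All 3 activator genes in the F1 table passed the test (17.3% of all genes did), but not in one direction. PSME2, 1 subunit of the interferon-inducible activator PA28, fell by 12.6% (limma, adjusted p = 0.0343), and PSME3, the nuclear PA28, fell by 8.47% (adjusted p = 0.0341). PSME4 encodes PA200, a nuclear activator that works without ATP or ubiquitin. It was at 702, 778, 768, 783 and 824 scaled normalized counts in Veh and at 883, 965, 890, 936 and 889 in sGC. Every sGC animal lay above every Veh animal, a rise of 18.4% (log2 fold change 0.24 ± 0.05 SE; limma, adjusted p = 0.00992). The inhibitor PSMF1 had a log2 fold change of 0.06 ± 0.04 SE (adjusted p = 0.349).

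The largest fall was that of an assembly chaperone. PSMG3, which pairs with PSMG4 to help build the alpha ring, was at 410, 433, 433, 464 and 436 scaled normalized counts in F1 Veh. In F1 sGC it was at 298, 340, 320, 341 and 311. The gap between the groups was wider than the range of either, and the fall was 26.0% by the log2 fold change (-0.43 ± 0.06 SE, limma, adjusted p = 0.00173). Its partner PSMG4 had a log2 fold change of 0.09 ± 0.12 SE (adjusted p = 0.656), with sGC values spread from 777 to 1303. PSMG1, PSMG2 and PSMD5 had negative log2 fold changes of -0.13, -0.21 and -0.12 with adjusted p-values from 0.117 to 0.269, and PSMC3IP, at 18.9 ± 1.99 (SD, n = 5) in Veh and 19.3 ± 5.05 (SD, n = 5) in sGC, one of 0.00.

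**Figure D2:**
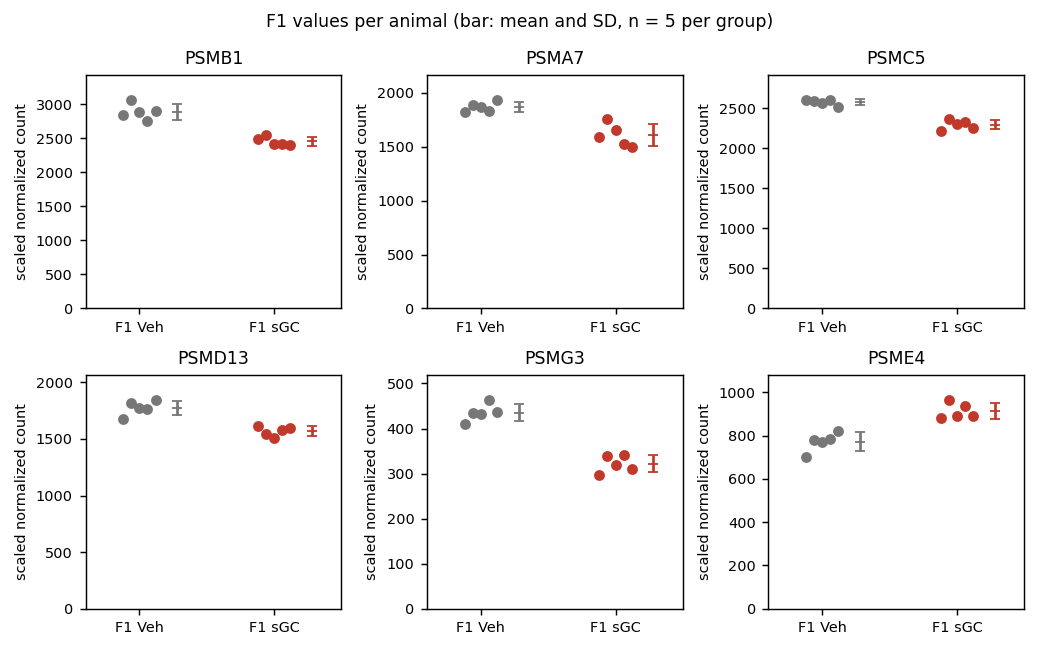
Scaled normalized counts of 6 members in each F1 animal (vertical axes from 0, grey for Veh and red for sGC, with the mean and SD of 5 animals beside the points). PSMB1, PSMA7, PSMC5, PSMD13 and PSMG3 are lower in every sGC animal than in any Veh animal, and PSME4 is higher in every sGC animal.

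Of these F1 calls, 7 did not depend on any single animal. PSMG3, PSMB1, PSMC5, PSMD13, PSME4, PSMA7 and PSMB4 passed in all 10 fits that left out 1 animal each, and all 18 called members kept their sign. The number of called members ranged from 7, without Veh replicate SGM11 (7.61% of all genes), to 16, without sGC replicate SGM8 (16.0% of all genes). With the direction that the authors' normalization had removed as a covariate, 13 of the 18 members passed, against 11.3% of all genes. At an unadjusted p under 0.05 there were 22 members, against 33.0% of all genes.

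The median fall in F1 was larger for the core genes than for the PSMC, PSMD and PSME genes, activators and PSMD5 included, by 0.10 on the log2 scale. Relative to all genes, the median log2 fold change was -0.21 for the 12 core genes and -0.11 for the 18 regulatory genes. The regulatory genes were mixed, with medians of -0.17 for the base ATPases, -0.13 for the activators, -0.07 for the lid and -0.02 for PSMD1 and PSMD2. In the core the medians were -0.22 for the alpha ring and -0.20 for the beta ring, so the base ATPases lay near the core genes. Averaged over the core genes of each animal, after centring each gene and subtracting the animal's median over all genes, the level ranged from 0.03 to 0.11 in Veh and from -0.13 to -0.05 in sGC, on the log2 scale. The same mean over regulatory genes ranged from 0.02 to 0.10 in Veh and from -0.06 to 0.01 in sGC. Neither range overlapped between the groups. The difference of both means within an animal, core minus regulatory, ranged from 0.008 to 0.089 in Veh and from -0.072 to 0.008 in sGC, where the ranges met. No p-value is given for these means, since the members were chosen with results of these data known.

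**Figure D3:**
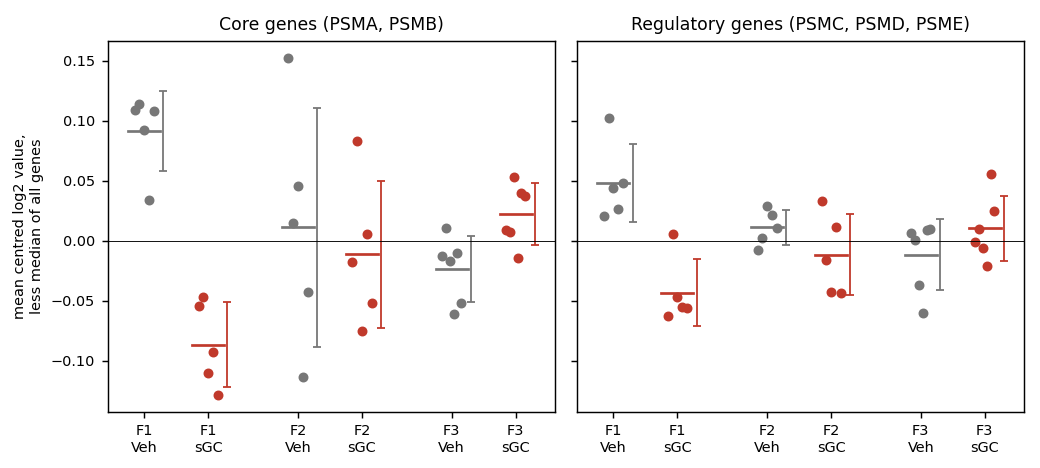
Mean centred log2 level of core genes (left) and regulatory genes (right) in each animal, relative to the median of all genes (vertical axis), by generation and treatment, with the group mean as a line and the SD as a bar. The F1 sGC animals lie below all F1 Veh animals in both panels, and the groups overlap in F2 and F3.

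Genes that work with the proteasome were described from a list of 20 measured in F1. Of these 7 fell and 1 rose, against 8.86% and 8.48% of all genes. POMP, the maturation factor of the core, fell by 0.24 on the log2 scale (limma, adjusted p = 0.00641), as did AKIRIN2, which brings proteasomes into the nucleus (a fall of 0.24, adjusted p = 0.0085). The ubiquitin receptor ADRM1 fell by 0.18, the proteasome-bound deubiquitinase USP14 by 0.16, the proteasome-associated thioredoxin TXNL1 by 0.23, the ubiquitin fusion gene RPS27A by 0.28 and the VCP cofactor UFD1L by 0.19. DDI2, the protease that activates the proteasome transcription factor NFE2L1, rose by 0.18 (adjusted p = 0.0124). NFE2L1 itself had a log2 fold change of -0.03 (adjusted p = 0.62), and the segregase VCP one of -0.05 (adjusted p = 0.331).

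Other abundant housekeeping complexes were lower in F1 sGC as well. Over all genes tested in F1, 8.86% fell and 8.48% rose. Of 52 cytosolic ribosomal protein genes, 25 fell and none rose, with a median of -0.19 relative to all genes. Of 59 respiratory chain genes, 31 fell and none rose (median -0.21), and of 8 genes of the chaperonin CCT, 4 fell and none rose (median -0.15). The proteasome median of -0.15 lay within the range of these 3 lists. On the deposited scale no gene of the 3 lists or of the proteasome partners passed.

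Markers of the cells in the punch moved in F1 too. All 6 PVN neuroendocrine markers had a negative log2 fold change, with a median of -1.12, and TRH passed (limma, adjusted p = 0.0398). Their summed level was 107424 to 209457 scaled normalized counts in Veh and 19747 to 172059 in sGC. All 5 oligodendrocyte markers in the table had a positive one (median 0.28, none passed, summed level 28868 to 51566 in Veh and 32460 to 89867 in sGC). All 5 endothelial markers were positive as well (median 0.32, none passed, summed level 6412 to 7040 in Veh and 6387 to 11753 in sGC). Microglial and neuronal markers went both ways. Of 5 microglial markers 2 had a negative log2 fold change (list median 0.25) and CX3CR1 rose by 0.25 (adjusted p = 0.0496; summed level 3637 to 3888 in Veh and 3688 to 6474 in sGC), of 4 neuronal markers 2 had a negative one (list median 0.05) and STMN2 fell by 0.21 (adjusted p = 0.0197; 49795 to 59246 and 47133 to 59387), and of 5 astrocyte markers none passed (112112 to 146823 and 119857 to 130571). No listed marker was at 0 in any animal, and the part of these shifts in the proteasome result was not tested.

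In F2, no proteasome gene passed the test among 39 members (limma, 0% of 11959 genes called). At an unadjusted p under 0.05 there were 5 members, all lower in sGC, against 12.8% of all genes in either direction (719 lower and 815 higher). The log2 fold change was negative in 28 of 39 members, with a median of -0.04 relative to all genes. The median was -0.05 for the core and -0.03 for the regulatory genes. In PSMG4, PSMB5, PSMB1, PSMB4 and PSMD6 all sGC animals lay below all Veh animals, as in 1.91% of all genes.

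PSMG4 had the largest difference among the F2 subunit and chaperone genes. It was at 1118, 1307, 1149, 1177 and 1238 scaled normalized counts in F2 Veh and at 996, 908, 1035, 935 and 1052 in F2 sGC (log2 fold change -0.28 ± 0.06 SE; limma, adjusted p = 0.095). PSMB5, the chymotrypsin-like catalytic subunit, was at 829, 873, 851, 851 and 840 in Veh and at 797, 798, 755, 754 and 751 in sGC. These groups were close but separate (log2 fold change -0.14 ± 0.04 SE; limma, adjusted p = 0.186). The catalytic subunit PSMB7 had a log2 fold change of -0.06 ± 0.04 SE. PSMA7 had one of -0.12 ± 0.04 SE, PSMB1 one of -0.09 ± 0.04 SE and PSMB4 one of -0.09 ± 0.04 SE, with adjusted p-values from 0.238 to 0.377.

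Other F2 members lay on both sides of 0. PSMB3 was at 2088, 1690, 1616, 1338 and 1502 in Veh and at 1570, 2020, 1856, 1881 and 2297 in sGC, groups that overlapped widely (log2 fold change 0.23 ± 0.12 SE; limma, adjusted p = 0.478). PSMC3IP, at about 20 to 30 scaled normalized counts, had a log2 fold change of 0.50 ± 0.24 SE (adjusted p = 0.419). The immunoproteasome genes PSMB8, PSMB9 and PSMB10 had log2 fold changes of -0.08 ± 0.23 SE, 0.09 ± 0.18 SE and 0.03 ± 0.14 SE. The activators PSME1, PSME2, PSME3 and PSME4 ranged from -0.06 to 0.02, and PSMD14 was at -0.03 ± 0.04 SE.

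Oligodendrocyte markers had the largest median shift of the marker lists in F2. All 6 were lower in every sGC animal than in any Veh animal, as were 1.91% of all genes. The median log2 fold change of these 6 was -0.77, and none passed (limma, adjusted p from 0.105 to 0.169). Their summed level was 127804 to 239467 scaled normalized counts in Veh and 75165 to 106744 in sGC. All 6 PVN markers had a positive log2 fold change (median 0.43, none passed; summed level 53465 to 102706 and 75658 to 194539). Other lists leaned one way too, and none of their genes passed. All 5 endothelial (median -0.27), 5 microglial (-0.13) and 4 neuronal markers (-0.13) had a negative log2 fold change. All 5 astrocyte markers had a positive one (median 0.17). The part of these markers in the member values was not tested.

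In F3, no proteasome gene passed among 39 members (limma), against 0.0421% of 11865 genes. At an unadjusted p under 0.05 there were 6 members, all higher in sGC, against 13.2% of all genes in either direction (760 higher and 802 lower). The log2 fold change was negative in 12 of 39 members. The median relative to all genes was 0.03, with 0.05 for the core and 0.03 for the regulatory genes. PSMA5, of the alpha ring, ranged from 784 to 845 scaled normalized counts in Veh (median 834) and from 843 to 933 in sGC (median 890.3). The lowest sGC animal lay just under the highest Veh animal, and the others lay above it (log2 fold change 0.11 ± 0.03 SE; limma, adjusted p = 0.175). PSMB4 ranged from 2427 to 2624 in Veh (median 2546) and from 2586 to 2802 in sGC (median 2692), with overlap (log2 fold change 0.08 ± 0.03 SE, adjusted p = 0.209). PSMD6, PSMD14, PSMC3 and PSMC5 had log2 fold changes from 0.06 to 0.08, with adjusted p-values from 0.28 to 0.371.

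The catalytic subunits PSMB5 and PSMB7 had log2 fold changes of 0.01 ± 0.05 SE and 0.08 ± 0.04 SE in F3. The largest positive value was that of PSMB8, an immunoproteasome subunit at 35.0 to 62.2 scaled normalized counts in Veh (median 42.3) and 39.1 to 62.4 in sGC (median 54.7), groups that overlapped almost fully (log2 fold change 0.25 ± 0.14 SE; limma, adjusted p = 0.495). PSMB9 and PSMB10 had log2 fold changes of -0.06 ± 0.12 SE and -0.01 ± 0.05 SE, and the largest negative ones besides PSMB9 were those of the lid genes PSMD3 at -0.06 and PSMD7 at -0.05. The activators ranged from -0.03 for PSME4 to 0.06 for PSME3. In F3, 2 of the 6 sGC animals came from a second sequencing batch, and the Veh libraries re-sequenced in that batch were not analysed here. With the first batch alone, 0 members and 0 of all genes passed (limma, adjusted p under 0.05). Unadjusted p was under 0.05 in 2 members, and the share of all genes at that threshold is not given. The median relative to all genes was 0.02 in that fit, with 0.03 for the core and 0.01 for the regulatory genes. Summed marker levels overlapped between Veh and sGC in every list in F3.

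The effect of sGC differed between generations in a share of the members. These contrasts came from 1 fit over 32 animals and 11425 genes tested in all 3 tables, and only effects were compared because the tables had been normalized separately. The F1 effect differed from the F3 effect in 18 of 36 members (17 more negative in F1, and PSME4 more positive; limma, adjusted p under 0.05), against 17.6% of all genes. The largest of these was PSMG3, with a difference of -0.42 ± 0.07 SE (adjusted p = 0.000195). PSMA5 differed by -0.33 ± 0.06 SE (adjusted p = 0.000594), from -0.22 in F1 to 0.11 in F3. The F1 effect differed from the F2 effect in 8 of 36 members, against 14.3% of all genes. PSMG3, PSMB3, PSMA6, PSMC1, PSMC5 and PSMD13 were more negative in F1, whereas PSME4 and PSMG4 were more positive. The F2 effect differed from the F3 effect in none of the 36 members, against 0.158% of all genes, both at an adjusted p under 0.05. For this contrast 9 members had an unadjusted p under 0.05, and the share of all genes at that threshold is not given. Both contrasts with F1 rest on the same F1 animals and on the scaling. On the deposited scale 0 members differed between F1 and F3, and 2 between F1 and F2. The share of all genes on that scale is not given, so these counts have no background beside them.

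**Figure D4:**
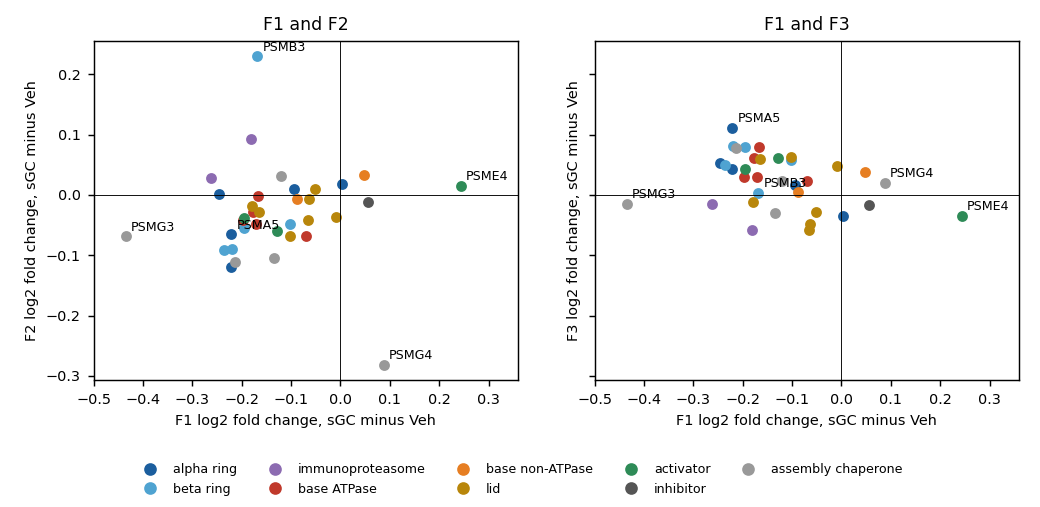
Log2 fold change of each member in F1 (horizontal axis) against F2 (left, vertical axis) and F3 (right, vertical axis), sGC minus Veh, with points coloured by role and PSMC3IP left out. Most members lie left of 0 in F1, and PSMG3, PSME4, PSMG4 and PSMB3 lie away from the cluster, PSMG4 at -0.28 and PSMB3 at 0.23 in F2.

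Proteasome genes varied less between animals of a group than all genes did. The median SD within groups, on the log2 scale, was 0.07 for the members in F1 and F2 and 0.06 in F3, against 0.12, 0.13 and 0.08 for all genes. Regulatory genes had the smaller median SD in each generation (0.06, 0.06 and 0.05), and the low immunoproteasome genes the larger (0.24, 0.29 and 0.22). A low spread was not particular to the members. In F1, F2 and F3 the median SD was 0.06, 0.09 and 0.05 for the proteasome partners and 0.08, 0.06 and 0.05 for CCT. For the respiratory chain it was 0.10, 0.07 and 0.07, and for the ribosomal proteins 0.10, 0.12 and 0.09.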

How the data were processed

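Punches of the PVN were sequenced in 32 animals of 3 generations; 2 re-sequenced F3 Veh libraries in the labels were not analysed here. The authors prepared mRNA libraries that do not mark strand, sequenced single reads of 51 bp (58 bp in the second F3 batch), aligned them to the cavPor3 assembly, counted reads on genes with GenomicAlignments 1.6.3, corrected the F3 batches with ComBat (sva 3.18.0) and applied the residual normalization of RUVSeq 1.4.0. The deposited values are a score, normalized counts rounded to whole numbers and not raw reads, so no count model was fitted. From the values, 1 direction had been taken out of the F1 values, 1 of the F2 values and 2 of the F3 values. The deposited columns of the authors' own edgeR 3.12.1 comparison (log2 fold change, its p-value and related columns) were not used.

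Each table was scaled by median-of-ratios size factors and converted to log2(value + 1). Genes whose mean reached 10 entered a limma 3.58.1 fit (R 4.3.3; moderated with a variance trend). P-values were adjusted by Benjamini and Hochberg over all genes tested, with a threshold of 0.05. A fold change is on that scale, which understates changes of low genes. The step was tested on simulated data. Sample totals and the number of animals limit the precision, and intervals from read counts are not given, because raw reads were not used here. The study's methods count sample sizes as independent litters, and the labels name no litter.

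Members and lists were chosen with earlier results of these data known. Named with full values were the catalytic and immunoproteasome subunits, the activators, PSMD14, up to 12 called members and the 3 largest changes each way per generation; other members and the animals singled out were named after their values were seen. Alternatives were other scalings, the removed directions as covariates, other pseudocounts and filters, robust variance, the F3 batch and each animal left out. Coordinates and sequences were not used here, because the reference tables are of another assembly.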

Additional observations from a re-analysis of the deposited data

Results flagged for a closer look

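Among 112 groups of member, mean and size factor values examined with Dixon's test, 6 held an animal far from the others, and chance alone gives about 5.6. On the log2 scale, PSMF1 was at 10.48 in F1 Veh replicate SGM7 and at 10.58 to 10.61 in the other 4. PSMB9 was at 6.28 in F1 sGC replicate SGM4 and at 5.87 to 5.98 in the others. PSMD14 was at 10.49 in F3 sGC replicate SGM18 and at 10.53 to 10.54 in the others. The mean core level was 0.034 in F1 Veh replicate SGM15, against 0.092 to 0.114. The mean regulatory level was 0.0053 in F1 sGC replicate SGM8, against -0.063 to -0.047. The size factor of F1 sGC replicate SGM20 was 0.908, against 1.04 to 1.07.

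The effect of sGC differed between F1 and F2 in 8 members (limma interaction, adjusted p under 0.05), against 14.3% of all genes. The F1 minus F2 difference of log2 fold changes was -0.37 for PSMG3, -0.16 for PSMD13, -0.25 for PSMA6, -0.40 for PSMB3, -0.16 for PSMC5 and -0.16 for PSMC1, and it was 0.37 for PSMG4 and 0.23 for PSME4. Between F1 and F3 it differed in 18 members, against 17.6% of all genes. In the core, the F1 minus F3 difference was -0.30 for PSMB4, -0.29 for PSMB1, -0.26 for PSMA7, -0.33 for PSMA5, -0.27 for PSMB7 and -0.30 for PSMA6. In the base and lid it was -0.25 for PSMC5, -0.23 for PSMC1, -0.24 for PSMC3, -0.20 for PSMC2, -0.23 for PSMD14, -0.17 for PSMD6 and -0.17 for PSMD13. Among activators it was -0.19 for PSME3, -0.24 for PSME2 and 0.28 for PSME4, and among chaperones -0.42 for PSMG3 and -0.29 for PSMG2. PSMG2 passed in neither generation alone.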

How the results depend on the processing

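In F1, 14 members passed with scaling to the sample total (1943 of all genes, 16.4%) and 17 with quantile normalization (2083 of all genes, 17.5%). On the deposited scale, without scaling, 0 members and 78 of all genes passed in F1. There 2 members differed between F1 and F2 and 0 between F1 and F3, with the share of all genes in these contrasts not given. With the removed direction as a covariate 1345 genes passed in F1. A further 3 alternatives were chosen after seeing the data. Without Veh replicate SGM7 and sGC replicate SGM20 together, 7 members and 960 genes passed in F1, with a median of -0.13 relative to all genes, and with deposited values and the log2 size factor as a covariate 17 members and 1814 genes passed. The third took the number of each column within its group as a replicate block, and 8 members and 771 genes passed in F1 and 0 members and 0 genes in F2 and in F3. Leaving out each animal gave 7 (without Veh replicate SGM11) to 16 members and 904 to 2021 genes in F1, with a median from -0.17 to -0.12. It gave 0 to 2 genes in F2 and 1 to 17 in F3, where all calls are few, and 0 members in both. Quantile normalization called 42 genes in F2. In F3, 1 gene passed with the removed directions as covariates, 0 with the first batch alone and 3 with batch as a covariate, and the cause of these changes was not tested.

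Small uncalled effects changed sign. In F2, PSMB10 was at -0.045 on the deposited scale and -0.011 with quantile normalization, and PSME4 at -0.059 on the deposited scale. In F3, PSMB5 was at -0.00148 with the first batch alone and at -0.00108 with batch as a covariate. With 1 animal left out, PSMG4 in F1 ranged from -0.015 to 0.17. In F2 the ranges were -0.048 to 0.14 for PSMB10, -0.019 to 0.064 for PSME4, -0.26 to 0.062 for PSMB8, -0.079 to 0.042 for PSME1, -0.079 to 0.0092 for PSME2 and -0.0012 to 0.20 for PSMB9. In F3 they were -0.029 to 0.039 for PSMB5 and -0.030 to 0.012 for PSMB10. The labels do not tie the column numbers used as the block to a litter or day. Deviations of same-numbered animals correlated over 0.1 in 1 of 5 pairs in F1, 1 of 5 in F2 and 2 of 6 in F3. Of the animals, 2 of 10, 2 of 10 and 1 of 12 correlated best with their own number. These few correlations, on values with directions removed, cannot show whether same-numbered animals shared a litter or a day, which was not tested.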

Other observations

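PSMB3, a structural beta ring gene, stood apart in its level across the tables. Its median in Veh animals was 4921 scaled normalized counts in F1, 1616 in F2 and 1588 in F3, a ratio of 3.05 between F1 and F2. The same ratio was between 0.781 and 1.49 in the other 35 members of both tables, and it was 3 or more, or its inverse, in 2.82% of 11605 genes. The tables had been normalized separately, so this is a description and no test was run.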
